A study of Mus musculus with 217 samples.

Results

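Ccdc80, Lmcd1, Serinc5, Unc5b, Cpe, Crispld1, Ugp2 and Ptgis are 8 of the 9739 genes measured in single cells that were dissected from the growth plate of the tibia. The mice were wild-type C57/BL at postnatal day 7. The 8 genes were chosen from earlier results of these same data because their levels followed a score of hypertrophic genes, so their relation to hypertrophy is described here and carries no test. All 217 deposited columns come from a single labelled condition, with no treatment, no mutant and no named animal, litter or plate. The values are levels on the deposited log2 scale, 1 column per cell. Columns that correlated above 0.95 were averaged as repeats of a cell and 1 column that resembled a mixture was left out, which gave 1 profile per cell. Profiles with Acan of at least 5, the gene of the cartilage proteoglycan aggrecan, were kept as chondrocytes and divided by their Col10a1 level into 4 bins of 44, and 11 profiles fell below that minimum.

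In the growth plate, chondrocytes divide in columns, leave the cell cycle, enlarge and become hypertrophic, and the cartilage they leave behind is mineralized and replaced by bone. Col10a1 encodes collagen X, the collagen that hypertrophic chondrocytes deposit and the usual mark of that state. Ihh marks cells entering hypertrophy, and Ibsp, a bone sialoprotein gene, is found in the last cartilage cells and in osteoblasts. The 8 genes do not form a pathway. Ccdc80 and Crispld1 encode secreted proteins, Cpe a peptidase of the secretory pathway, Unc5b a netrin receptor and Serinc5 a membrane protein, while Lmcd1 encodes a LIM domain regulator, Ugp2 the enzyme that makes UDP-glucose and Ptgis prostacyclin synthase.

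The kept profiles were checked against the markers of cartilage and of other cells. Sox9, whose product is the master regulator of the chondrocyte fate, was detected in every kept profile, and the 15 measured genes of the chondrocyte list had a median share of 100%. Col2a1, the main cartilage collagen, was an exception, with detection in 21%. Pecam1, an endothelial gene, was detected in 4 profiles (2.27%, 95% exact Clopper-Pearson interval 0.623 to 5.72%), and Col1a1, a bone collagen gene, in 24 (13.6%, 8.94 to 19.6%). Detection means a back-transformed value of at least 1, and intervals cover counting error only. Acan separated the profiles cleanly: the lowest values kept were 6.67 and 6.79, and the highest values left out were 2.91 and 0.01.

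The genes lie on 8 different chromosomes of the GRCm38 build, which is mm10. Ccdc80 spans chromosome 16 from 45093402 to 45128077 with 9 exons in its longest transcript, Lmcd1 chromosome 6 from 112273758 to 112330425 with 6 exons, and Serinc5 chromosome 13 from 92611091 to 92711947 with 12 exons. Unc5b lies on chromosome 10 from 60762593 to 60831581 (17 exons), Cpe on chromosome 8 from 64592542 to 64693054 (9 exons) and Crispld1 on chromosome 1 from 17727045 to 17766344 (15 exons). Ugp2 lies on chromosome 11 from 21321138 to 21371201 and Ptgis on chromosome 2 from 167191805 to 167240604, with 10 exons each. GENCODE M21 places antisense genes over Lmcd1, Crispld1, Ugp2 and Ptgis, and with no strand stated their reads cannot be told apart from those of the listed genes. Col10a1 itself, on chromosome 10 from 34389981 to 34397085, lies within the span of Nt5dc1 on the other strand. Nt5dc1 averaged 3.27 ± 3.10 in the profiles with most Col10a1 and 0.99 ± 2.45 in those with least (SD, 44 profiles each), and the part of Col10a1 reads in this was not tested.

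RefSeq promoters of the GRCm38.p6 build were matched for 4 of the 8 genes, namely Lmcd1, Serinc5, Unc5b and Ugp2. The 250 bases before the start are printed for 3 of them beside Col10a1, because the gene that orders the cells and the genes that follow it differ in these letters. Capitals mark TATAAA or GGGCGG on either strand, and all sequences run 5′ to 3′ on the strand of the gene.
Col10a1, chr10:34389731-34389980, plus strand: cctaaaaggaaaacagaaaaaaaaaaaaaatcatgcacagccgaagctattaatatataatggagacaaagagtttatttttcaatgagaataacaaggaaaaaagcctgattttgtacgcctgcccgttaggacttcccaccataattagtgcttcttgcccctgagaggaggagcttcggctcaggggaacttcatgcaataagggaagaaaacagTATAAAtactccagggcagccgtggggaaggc
Lmcd1, chr6:112273508-112273757, plus strand: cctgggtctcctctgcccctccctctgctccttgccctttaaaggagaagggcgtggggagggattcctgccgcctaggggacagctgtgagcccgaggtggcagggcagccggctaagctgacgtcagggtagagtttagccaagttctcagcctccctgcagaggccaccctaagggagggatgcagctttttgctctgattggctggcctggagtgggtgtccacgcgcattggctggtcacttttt
Serinc5, chr13:92610888-92611137, plus strand: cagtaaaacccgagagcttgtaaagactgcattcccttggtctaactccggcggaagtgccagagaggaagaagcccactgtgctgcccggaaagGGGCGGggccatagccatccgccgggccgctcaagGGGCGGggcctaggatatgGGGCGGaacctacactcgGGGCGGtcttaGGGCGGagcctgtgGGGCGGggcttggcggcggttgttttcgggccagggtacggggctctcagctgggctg
Unc5b, chr10:60831582-60831831, minus strand: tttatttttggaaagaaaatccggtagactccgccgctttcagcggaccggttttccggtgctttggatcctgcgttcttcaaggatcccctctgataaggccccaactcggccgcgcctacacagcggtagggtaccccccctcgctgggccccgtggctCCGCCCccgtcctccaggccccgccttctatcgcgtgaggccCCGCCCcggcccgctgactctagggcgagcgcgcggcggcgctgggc

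The Col10a1 window holds TATAAA at bases -32 to -27 from the start, a motif found in 12.4% of 32851 promoter windows of the same length, and no GGGCGG. Serinc5 holds 6 copies of GGGCGG, between bases -155 and -53, and Unc5b holds 2, against 32.7% of all windows with at least 1 match. Lmcd1 has neither. The G and C content was 65.6% for Serinc5, 66.8% for Unc5b and 61.2% for Lmcd1, against 41.6% for Col10a1 and a median of 52.4% over all windows. TGTGGT (the RUNX motif, 14% of windows), TGANTCA (AP-1, 6.75%), ACAATG (SOX, 10.7%) and the MEF2 motif (0.508%) were also searched on both strands, and these letters are in none of the 4 windows shown.

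The 4 bins ran from lowest to highest Col10a1. Its level lay from 0 to 1.85 in bin 1, where 27 profiles were at 0, from 2.14 to 7.58 in bin 2, from 7.60 to 10.14 in bin 3 and from 10.25 to 14.62 in bin 4. The number of genes detected moved with it. Its median was 3063 in bin 1, 3528 in bin 2, 3504 in bin 3 and 3610 in bin 4, and it correlated with Col10a1 at a Spearman rho of 0.33 over all kept profiles. Correlations given the number of genes detected are therefore printed beside the plain ones. All correlations here are across cells of 1 sample that share a dissection and a scaling, and are given without p-values. Sequencing depth is unknown, so a value of 0 can be a failed detection.

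All 8 genes were higher in bin 4 than in bin 1 by at least 1 on the log2 scale. Of the 5380 genes detected in at least 20% of profiles, all 8 among them, 16.1% were higher by that much (864 genes) and 4.24% were lower (228). The median difference was 3.12 over the 8 genes and 0.30 over all 5380. These counts depend on scaling, with 24.2% of genes higher and 2.49% lower after scaling to the upper quartile and 5.30% higher and 7.32% lower once genes detected was regressed out, while all 8 genes stayed higher by at least 1 in both settings. The contrast is close to the one by which the genes were chosen, so nothing is read from their share.

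**Figure D1:**
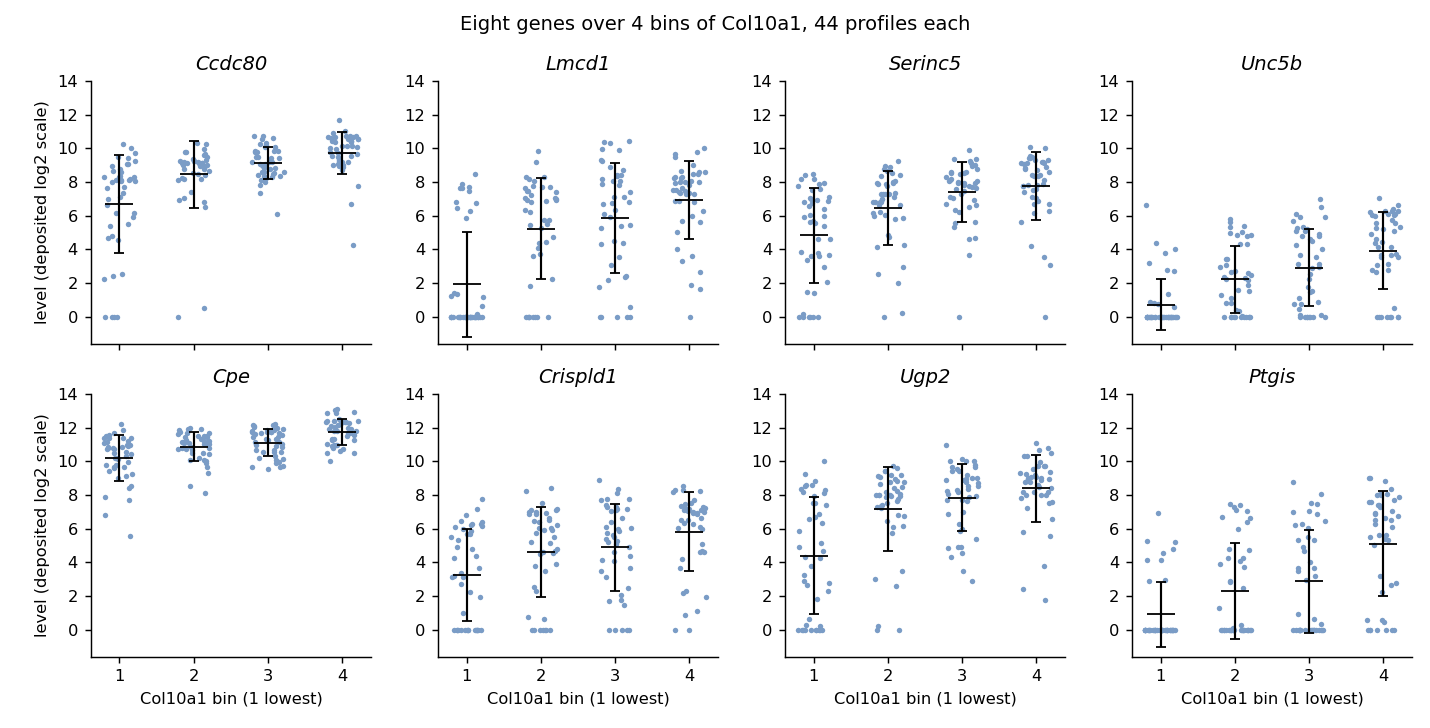
Level of each of the 8 genes (vertical axis, deposited log2 scale) in the 4 bins of Col10a1 (horizontal axis, lowest to highest, 44 profiles each). Points are profiles, and the black bar and whiskers are the mean and SD. Lmcd1, Unc5b and Ptgis have many profiles at 0 in bin 1, whereas Cpe is above 0 in every profile.

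Ccdc80 encodes a secreted protein that binds to extracellular matrix. From bin 1 to bin 4 its median level was 8.04, 9.0, 9.06 and 10.07. The lowest profile of each bin stood at 0, 0, 6.13 and 4.24 and the highest at 10.27, 10.30, 10.74 and 11.68, so the bins overlapped widely. It averaged 9.74 ± 1.25 in bin 4 and 6.71 ± 2.90 in bin 1 (SD, 44 profiles each), a difference of 3.03 against a pooled SD of 2.23. In bin 4, 41 of 44 profiles lay above the bin 1 median, and 18 lay above every profile of bin 1. The SD was 2.90 in bin 1, 2.0 in bin 2, 0.95 in bin 3 and 1.25 in bin 4, and the 6 profiles without detected Ccdc80 were all in bins 1 and 2. Its partial rho with Col10a1 given genes detected was 0.55, the highest of the 5379 genes other than Col10a1.

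Crispld1, the other secreted product of the set, belongs to the cysteine-rich CAP domain family. It was the least tied to Col10a1 of the 8, with a rho of 0.35 and a partial rho of 0.27. Its bin medians were 3.30, 5.38, 5.47 and 6.93, the lowest profile was at 0 in every bin, and the highest stood at 7.79, 8.43, 8.88 and 8.53. The means were 5.83 ± 2.33 in bin 4 and 3.24 ± 2.74 in bin 1. That difference of 2.59 is about as large as the pooled SD of 2.54, so bins 1 and 4 share most of their range.

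Cpe, or carboxypeptidase E, removes basic residues from the ends of peptide precursors in the secretory pathway. It was detected in every kept profile, and its bin medians were 10.53, 11.11, 11.29 and 11.87. The lowest profile stood at 5.56, 8.15, 9.54 and 10.03 and the highest at 12.23, 12.01, 12.25 and 13.11, so that the floor moved more than the ceiling. Cpe averaged 11.77 ± 0.77 in bin 4 and 10.19 ± 1.37 in bin 1. This was the smallest difference of the 8, at 1.59, but with a pooled SD of 1.11 and a partial rho of 0.46 its order by Col10a1 was as close as that of genes with larger steps. The SD between repeats of a cell was 0.18 for Cpe, the lowest of the 8 genes, for which it ran up to 0.65.

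Serinc5 encodes a membrane protein of many spans that, in human cells, restricts the infectivity of HIV. The bin medians were 5.66, 7.00, 7.87 and 8.34, with a lowest profile at 0 in each bin and highest profiles at 8.50, 9.26, 9.93 and 10.11. It averaged 7.77 ± 2.0 in bin 4 and 4.84 ± 2.81 in bin 1, a difference of 2.93, and 19 of the 44 profiles of bin 4 lay above every profile of bin 1. By bin 3 it had covered 87.2% of that difference, the largest share of the 8 genes.

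Unc5b encodes a receptor for netrins, which guide axons and vessels. It was detected in 79.5% of the profiles of bin 4 (interval 64.7 to 90.2%) and in 18.2% of bin 1 (8.19 to 32.7%), with 63.6% and 68.2% in bins 2 and 3. Its bin medians were 0, 2.22, 3.06 and 4.43, the lowest profile was at 0 in every bin, and the highest profiles stood at 6.63, 5.78, 7.02 and 7.06. The means were 3.93 ± 2.30 in bin 4 and 0.73 ± 1.52 in bin 1. Among profiles in which it was detected, the level averaged 4.93 ± 1.29 in bin 4 and 3.60 ± 1.54 in the 8 profiles of bin 1. Both the share of cells and the level per detected cell were thus higher.

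Lmcd1 encodes a protein with LIM and cysteine-rich domains that binds GATA factors. It had the largest difference of the set, 5.0, with means of 6.93 ± 2.29 in bin 4 and 1.93 ± 3.11 in bin 1. The medians were 0, 6.28, 6.73 and 7.52, the lowest profile was at 0 in every bin, and the highest stood at 8.49, 9.82, 10.41 and 10.03. In bin 4, 43 of 44 profiles had it (97.7%, interval 88 to 99.9%), against 15 of 44 in bin 1 (34.1%, 20.5 to 49.9%), and 81.8% and 86.4% had it in bins 2 and 3. Detected levels averaged 7.09 ± 2.05 in bin 4 and 5.61 ± 2.77 in bin 1. Lmcd1 therefore differed both in how many profiles had it and in its level there, and its largest step, 3.30, was between bins 1 and 2. Low Col10a1 thus did not mean that Lmcd1 was low in every cell.

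Ugp2, which makes UDP-glucose for glycogen and for the sugar chains of proteoglycans, also had its largest step, 2.77, between bins 1 and 2. The step between these bins was the largest for every member except Ptgis. The medians of Ugp2 were 4.52, 7.97, 8.33 and 8.87, the lowest profiles stood at 0, 0, 2.87 and 1.76, and the highest at 10.04, 9.74, 10.99 and 11.08. It averaged 8.41 ± 1.99 in bin 4 and 4.40 ± 3.46 in bin 1, a difference of 4.01. Of this, 69.1% was reached in bin 2, the largest share of the 8 genes at that point.

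Ptgis encodes prostacyclin synthase, a cytochrome P450 enzyme that turns prostaglandin H2 into prostacyclin. Its largest step came late on the axis. The medians were 0, 0.06, 1.95 and 6.41, with highest profiles at 6.95, 7.46, 8.76 and 9.0 and profiles at 0 in every bin. It was detected in 34 of 44 profiles of bin 4 (77.3%, interval 62.2 to 88.5%) and in 9 of 44 of bin 1 (20.5%, 9.80 to 35.3%), with 45.5% and 50% in bins 2 and 3. The means were 5.11 ± 3.13 in bin 4 and 0.93 ± 1.93 in bin 1. The step between bins 3 and 4 was 2.24, against 1.38 between bins 1 and 2. Ptgis, Lmcd1 (1.07) and Unc5b (1.02) were the 3 members with a step of at least 1 between bins 3 and 4, which 3.96% of the 5380 genes had.

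**Figure D2:**
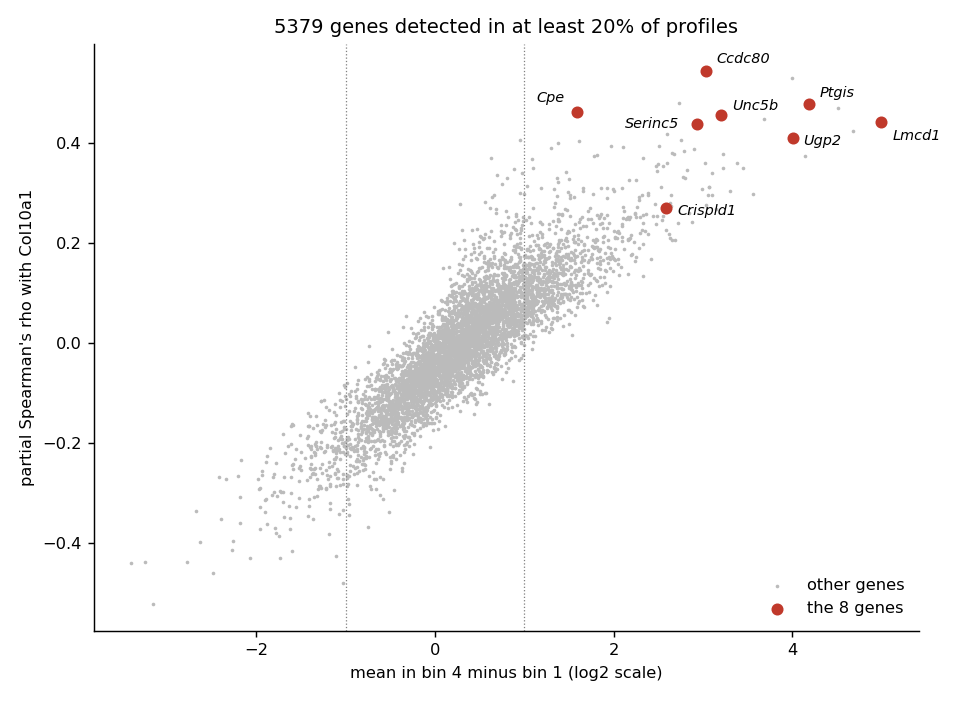
Difference of the mean between bin 4 and bin 1 of Col10a1 (horizontal axis, log2 scale) and partial Spearman's rho with Col10a1 given genes detected (vertical axis) for 5379 genes detected in at least 20% of the kept profiles, with Col10a1 left out. The 8 genes, in red, lie to the right of the dotted line at 1, with Cpe nearest to it at 1.59 and Lmcd1 farthest at 5.0.

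Given genes detected, the correlation of the 8 genes with Col10a1 ran from 0.27 to 0.55, with a median of 0.45, and over all genes the median was 0.00. A partial rho of at least 0.2 was reached by all 8 genes and by 5.21% of the 5379 genes. The 8 were chosen along a related axis in these data, so nothing is read from this share or from their ranks. The 15 genes of highest partial rho included 7 of the 8, all except Crispld1. Slc13a5, a citrate transporter gene (0.53), Enpp2, which encodes autotaxin (0.48), and Cd200, a membrane glycoprotein gene (0.47), stood among them without being members. The 8 genes themselves correlated with genes detected at a rho of 0.19 to 0.36.

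The first bin whose mean lay at least 1 above that of bin 1 was bin 2 for 7 of the 8 genes, and 6.26% of the 5380 genes were that much higher in bin 2. The 8 were chosen along a related axis in these data, so nothing is read from this share. With genes detected regressed out the count was 5, with Ptgis first past 1 at bin 3 and Crispld1 and Cpe at bin 4. In the main setting the exception was Cpe, at bin 4. Cpe also had the smallest difference of the 8, 1.59, so a fixed step of 1 is a larger part of it than for the others. The size of the steps differed. At bin 2, Ugp2 had reached 69.1% and Lmcd1 66% of their difference between bins 4 and 1, followed by Ccdc80 (57.6%), Serinc5 (56.1%), Crispld1 (53.5%), Unc5b (46.6%), Cpe (43.9%) and Ptgis (33.1%). At bin 3, Ptgis was still at 46.5%, and Cpe at 58.5%, while the other genes had covered 64.6 to 87.2%. Over the main setting and 11 alternatives with 4 parts, Ptgis had the lowest share at the second part in 11 of 12, while Unc5b and Cpe were among the lowest 3 in 10 of 12 each. The exception for Ptgis was the setting with Col10a1 detected, where Lmcd1 was lowest at 1.92% and Ptgis next at 5.49%. That setting draws its bins anew without the profiles that lack Col10a1. Its first bin therefore lies higher on Col10a1 than bin 1 here, and its shares are not read as an order against those above. Crispld1 had no fixed place, with a rank from the lowest that ran from 3 to 8. Those settings reuse the same profiles and are not separate observations.

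**Figure D3:**
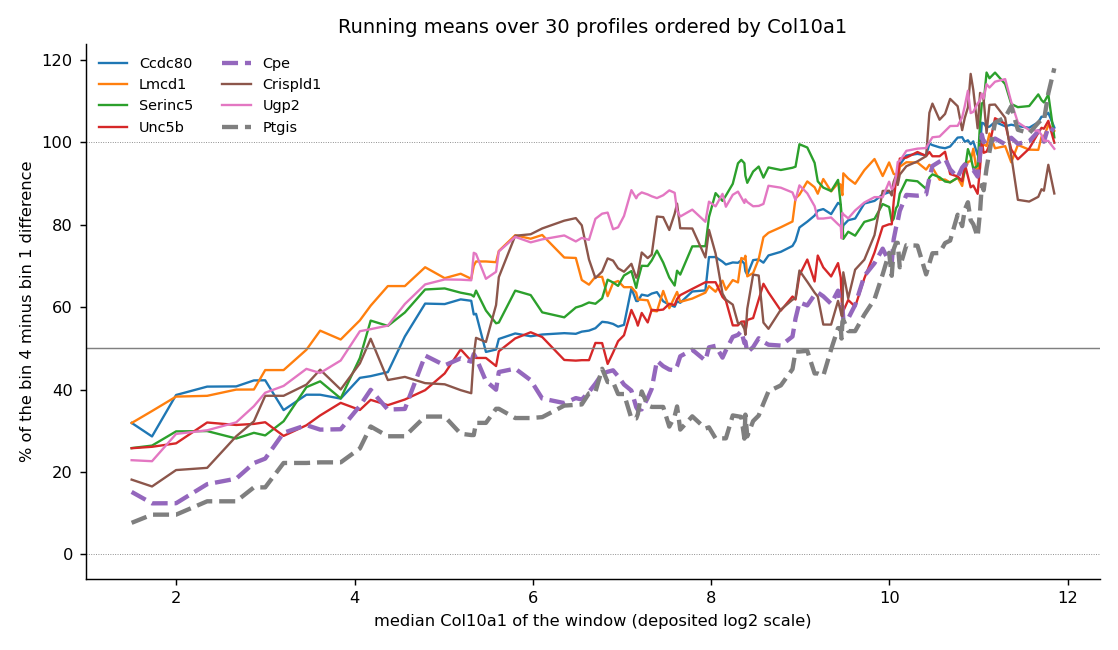
Running mean of each gene over 30 profiles in order of Col10a1 (horizontal axis, median Col10a1 of the window on the deposited log2 scale), drawn as the percentage of its difference between bins 4 and 1 (vertical axis), for profiles with Col10a1 above 0. Ptgis and Cpe, dashed, are the last to reach the grey line at 50%. Ptgis runs below the other genes over most of the range, whereas Cpe crosses some of them at low and at high Col10a1.

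A finer order was taken from running means over 30 profiles with Col10a1 above 0. The midpoint between the bin 1 and bin 4 means was first reached at a window median of Col10a1 of 3.61 by Lmcd1, 4.06 by Ugp2, 4.18 by Serinc5 and Crispld1 and 4.56 by Ccdc80. Unc5b reached it at 5.80, Cpe at 7.98 and Ptgis at 9.42. For Ccdc80, Unc5b, Cpe and Crispld1 the mean dipped below the midpoint again in later windows. Neighbouring windows share profiles and the SD over profiles was 1.12 to 3.47 for these genes, so the first 5 genes are not separated from each other. Ptgis and Cpe came last of the 8 in this measure as well.

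Detection in single profiles gave a related picture. Of the 63 profiles with only Lmcd1 or only Ptgis, 55 had Lmcd1 (87.3%, interval 76.5 to 94.4%). Lmcd1 without Unc5b was found in 41 profiles and the reverse in 10. Between Unc5b and Ptgis the split was 40 against 24 (62.5%, 49.5 to 74.3%), and this interval includes equal shares. The number of the 8 genes detected per profile had a median of 5 in bin 1, 7 in bins 2 and 3 and 8 in bin 4. All 8 were detected in 28 of 44 profiles of bin 4 (63.6%, 47.8 to 77.6%) and in 3 of 44 of bin 1 (6.82%, 1.43 to 18.7%). Detection also depends on how strongly a gene is sampled, so these counts do not give a time order.

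The contrast was also taken without the profiles that lacked Col10a1. When bins were drawn only among the profiles in which Col10a1 was detected, the differences were smaller but still at least 1 for all 8 genes. They were 3.52 for Ptgis, 1.99 for Lmcd1, 1.89 for Unc5b, 1.61 for Ccdc80, 1.56 for Ugp2, 1.25 for Serinc5, 1.13 for Crispld1 and 1.08 for Cpe. The largest difference was then that of Ptgis, and none of the 8 had a second bin at least 1 above the first.

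The 8 genes varied together from cell to cell. Their 28 pairs had a median rho of 0.42 (range 0.28 to 0.57), and 0.38 given genes detected (0.21 to 0.54), whereas the medians over all pairs of the 5380 genes were 0.03 and 0.00. All 28 pairs had a partial rho of at least 0.2, as did 0.958% of all pairs. Such agreement is built in to some degree, since all 8 were chosen along the same axis. With Col10a1 also held, the median was 0.23 and all 28 pairs stayed above 0 (0.03 to 0.39), with 18 at 0.2 or more, against 0.822% of all pairs. The 8 were chosen along a score of several hypertrophic genes, so holding Col10a1 alone does not remove that choice. Nothing is read from this share.

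**Figure D4:**
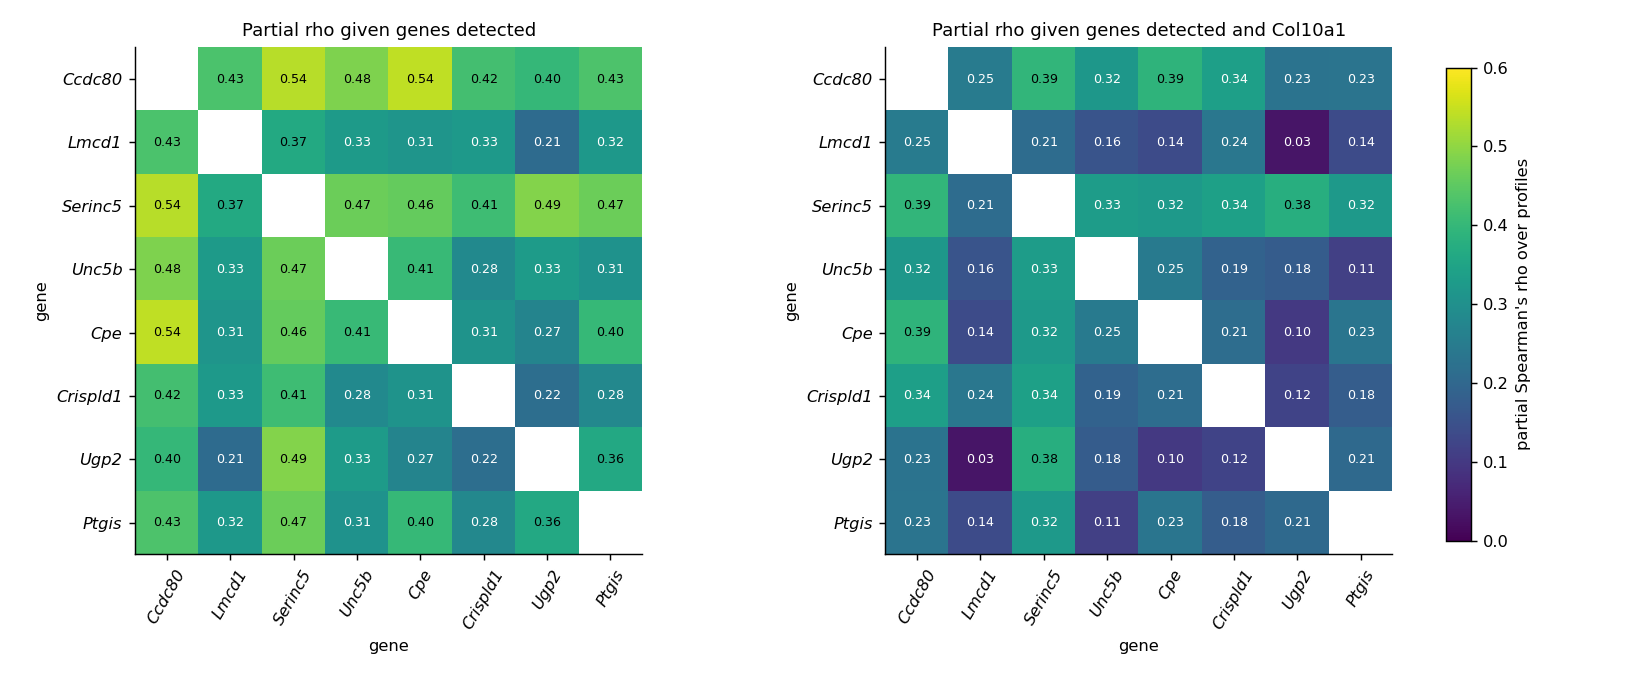
Partial Spearman's rho between the 8 genes over all kept profiles (rows and columns are genes, colour and numbers are rho from 0 to 0.6), given genes detected on the left and given genes detected and Col10a1 on the right. Ccdc80 with Cpe and with Serinc5 is highest in both panels, and Lmcd1 with Ugp2 is lowest at 0.21 and 0.03.

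Serinc5 and Ccdc80 had the highest median partial rho with the other 7 genes, at 0.47 and 0.43. Ccdc80 had a partial rho of 0.54 with Cpe, 0.54 with Serinc5 and 0.48 with Unc5b, and it was 0.39, 0.39 and 0.32 for the same pairs with Col10a1 held. Serinc5 and Ugp2 correlated at 0.49, and at 0.38 with Col10a1 held. Lmcd1 and Ugp2, which like every member except Ptgis had their largest step between bins 1 and 2, correlated at 0.21. With Col10a1 held, this pair was at 0.03. Against the mean z of the other 7 genes, Serinc5 had a partial rho of 0.68 and Ccdc80 of 0.67, while Lmcd1 and Crispld1 had 0.46 each.

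Known zone genes were set beside the mean z of the 8 genes, again given genes detected. The 8 were chosen along a score of hypertrophic genes in these same cells. Their relation to zone genes, here and for the single pairs below, is therefore built in to some degree. Panx3, a channel gene of prehypertrophic cells, correlated at 0.60 and Mef2c, a transcription factor that drives hypertrophy, at 0.46. Bmp6, a bone morphogenetic protein gene, followed at 0.30 and Runx3, a RUNX factor, at 0.29. Ibsp (0.25), Ihh (0.19) and Spp1, the osteopontin gene (0.07), were lower, and Sp7 (0.04), Mmp13 (0.03) and Runx2 (-0.02) were near 0. Ihh, Ibsp, Spp1, Mmp13 and Runx2 were detected in only 8.52 to 34.7% of profiles, which limits what a rank correlation can show. Sox9 correlated at -0.40, Ucma, a matrix protein gene of the resting and upper zones, at -0.37 and Sfrp5, a WNT antagonist gene, at -0.28. Sox9 averaged 7.37 in bin 4 and 9.44 in bin 1, and Ucma 1.32 and 3.02.

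Of single pairs, Serinc5 with Panx3 was the closest, at a partial rho of 0.64. Ccdc80 had 0.43 with Mef2c and -0.46 with Sox9, and Cpe had -0.48 with Sox9. Lmcd1 showed less of each, at 0.13 with Mef2c and -0.16 with Sox9. Ptgis stood apart through Ibsp, with which it correlated at 0.39, against 0.06 to 0.22 for the other 7 genes. Its partial rho with Col1a1 was 0.20.

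The profiles were also grouped by detection of Ihh and Ibsp. Ptgis averaged 0.97 ± 2.02 in 29 profiles with none of Col10a1, Ihh and Ibsp, 2.52 ± 3.02 in 69 with Col10a1 alone, 2.16 ± 2.74 in 41 with Ihh and no Ibsp and 5.51 ± 2.92 in the 37 with Ibsp. Lmcd1 averaged 1.92 ± 3.21, 5.57 ± 3.22, 5.09 ± 3.17 and 6.20 ± 3.15 in the same order. Within bin 4, where Col10a1 had a median of 11.60 with Ibsp and 11.30 without, Ptgis averaged 6.37 ± 2.64 in 20 profiles with Ibsp and 4.07 ± 3.17 in 24 without. Lmcd1 did not keep its order there, with a mean of 6.38 ± 2.93 with Ibsp and 7.39 ± 1.5 without and medians of 7.67 and 7.43. The other 7 genes had the higher mean with Ibsp. Unc5b averaged 5.11 ± 1.62 in the 20 profiles of bin 4 with Ihh and 2.95 ± 2.34 in the 24 without. Median genes detected were 3710 with Ibsp and 3460.5 without, and 3683 with Ihh and 3557 without, and their part in these differences was not tested.

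The 11 profiles below the Acan minimum split the set. Of these, 9 had Ibsp and 8 had Col1a1, with medians of 12.88 and 12.33. Ptgis was detected in 8 of the 11 at a median of 8.62 (range 0 to 9.45), above the median of 6.41 in bin 4 of the chondrocytes. Cpe was also found in 8 (median 10.19, highest 11.82), Ccdc80 in 8 (median 3.72, highest 8.20) and Unc5b in 6 (median 1.11, highest 6.16). By contrast, Lmcd1 was detected in 2, Ugp2 in 3, Serinc5 in 5 and Crispld1 in 1, each with a median of 0. Col10a1 was detected in 2 of the 11 and did not exceed 3.10, so Ptgis was detected in profiles without high Col10a1. They held a median of 2757 genes, against 3063 in bin 1.

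**Figure D5:**
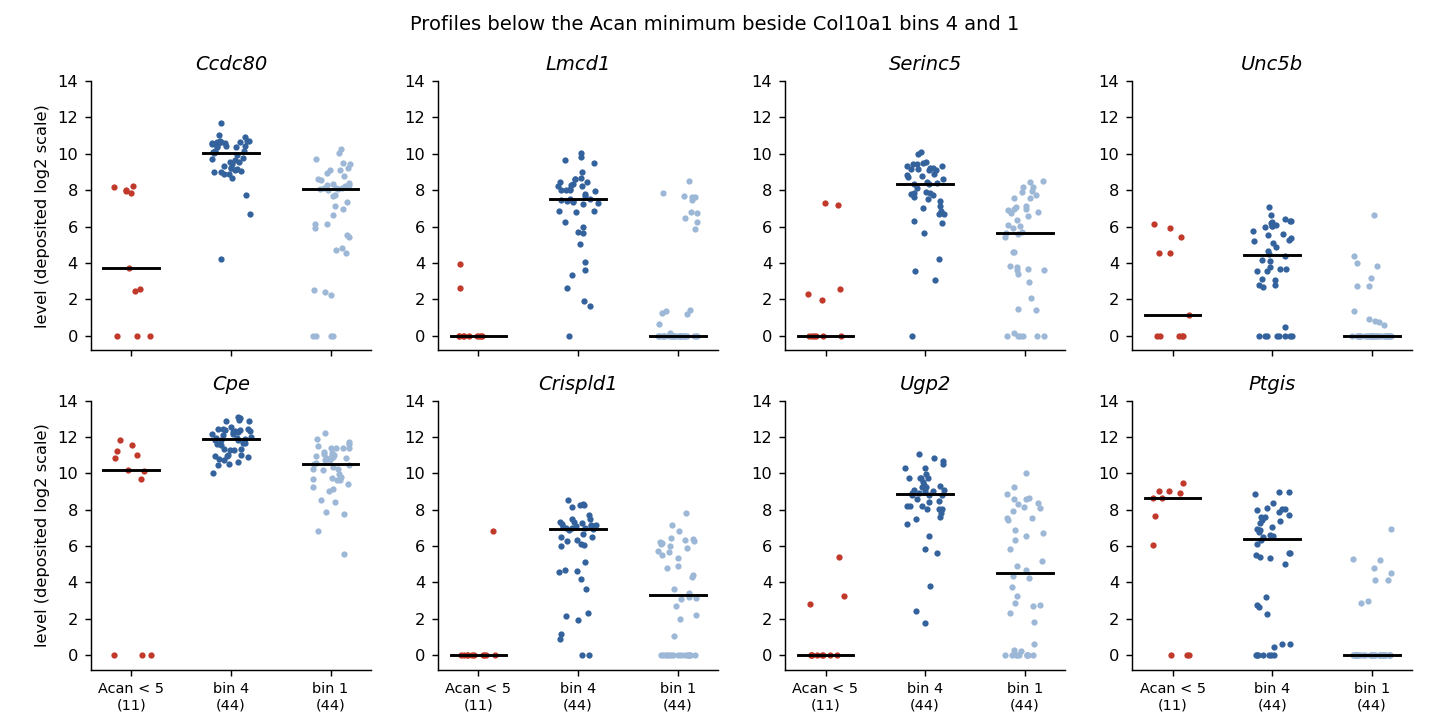
Levels of the 8 genes (vertical axis, deposited log2 scale) in the 11 profiles with Acan below 5, in bin 4 and in bin 1 of the chondrocyte profiles (44 each). Points are profiles and bars are medians. Ptgis has a median of 8.62 in the 11 profiles, 6.41 in bin 4 and 0 in bin 1, while Lmcd1, Serinc5, Crispld1 and Ugp2 have a median of 0 in the 11 profiles.

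Of the genes that share a pathway or family with the 8, most did not differ by 1 between bins 4 and 1. Many of them, above all in the prostanoid, guidance and CAP lists, were detected in few profiles. Rarely detected genes have low means, which leave little room for a difference of 1. In all of these pathway and family lists, a gene within 1 is therefore not read as unchanged. For these lists the background is all 9739 genes, of which 9.27% were higher in bin 4 by at least 1 and 2.37% lower, with a median difference of 0.15. Around Ugp2, 3 of 21 genes of UDP-sugar, glycogen and sulfate donor supply were higher, namely Papss1, a sulfate donor synthase (1.96), Gys1, glycogen synthase (1.5), and Slc35d1, a nucleotide sugar transporter (1.49). Pgm1, a phosphoglucomutase, was lower (-1.39), and the median of the list was 0.50. Around Ptgis, 2 of 12 prostanoid genes were higher, Cbr1 (1.27) and the prostaglandin-degrading Hpgd (1.05). The other 2 past 1 were lower. Ptgs2, the inducible cyclooxygenase that supplies prostaglandin H2, averaged 6.49 in bin 4 and 7.92 in bin 1 (-1.43), and Ptges3, a prostaglandin E synthase and HSP90 cochaperone, 8.86 and 10.61 (-1.74). The median of the prostanoid list was -0.12.

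Around Unc5b, none of 13 measured genes of netrin, semaphorin and slit guidance was higher by 1, and Nrp1, a semaphorin and VEGF receptor, was lower (-1.27). Around Cpe, 1 of 4 measured genes of peptide processing was higher, the proprotein convertase Pcsk6 (3.23). Serinc3 (1.3), a relative of Serinc5, and Sptlc2 (1.88), a subunit of the enzyme that starts sphingolipid synthesis, were the 2 of 14 genes of serine and membrane lipid supply that were higher. Around Lmcd1, Zyx (1.26) was higher and Ppp3ca, a calcineurin subunit (-1.14), lower of 15 genes. Around Crispld1, its paralogue Crispld2 was lower (-1.29), the only one of 4 CAP genes past 1. Around Ccdc80, Fn1, the fibronectin gene (1.03), was higher and Fbln7 (-1.3) lower of 14 matrix glycoprotein genes.

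Of the zone lists, 6 of 12 prehypertrophic genes and 5 of 8 late hypertrophic genes were higher by at least 1 and none was lower, with medians of 0.93 and 1.17. The background for every list in this paragraph is again all 9739 genes, with 9.27% higher and 2.37% lower. The lists were written with earlier results of these data known, so these counts are a description. The late genes included Bmp2 (3.22), Ibsp (2.65) and Spp1 (1.96). Markers of other states moved along the same axis. Of the 19 measured genes of the immediate-early and heat shock list, a known mark of handling stress, 7 were higher, with Atf3 at 4.14 and Fos at 2.87, and 1 was lower. Their mean level per profile ran from 2.10 to 6.62 in bin 4 (median 4.20) and from 2.02 to 5.18 in bin 1 (median 3.58). With their mean z also held, the partial rho of the 8 genes with Col10a1 ran from 0.26 to 0.54, against 0.27 to 0.55 without it. Of the osteoblast list, 4 of 12 genes were higher, namely Ibsp (2.65), Smpd3 (2.50), Phex (1.55) and Dmp1 (1.17). Ibsp and Dmp1 are also in the late hypertrophic list. The 8 genes within 1 included Col1a1 (0.53), Col1a2 (-0.18), Bglap (0.49), Sp7 (0.56) and Runx2 (-0.64). Of these, Col1a1, Bglap and Runx2 were detected in 10.2 to 14.2% of profiles, which leaves little room for a difference of 1. The mean level of the list ran from 1.77 to 5.46 in bin 4 (median 2.92) and from 1.10 to 4.06 in bin 1 (median 2.29). Without the profiles that had Ibsp, the median difference of the 8 genes was 2.65, against 3.12 with them. None of the 10 measured G2/M genes and none of the 6 macrophage and osteoclast genes differed by 1. Nor did the 6 perichondrial and fibroblast genes or the 1 measured gene each of the endothelial, blood and muscle lists. Apart from the perichondrial and fibroblast list, most of these genes were detected in few profiles. Their low means leave little room for a difference of 1, so these lists are not read as unchanged along Col10a1. The median difference of the G2/M list was negative.

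Among 5371 other genes, those most like the mean of the 8, by partial rho given genes detected over all kept profiles, were Adk, adenosine kinase (0.61), Panx3 (0.60), Smpd3, a sphingomyelinase needed for mineralization (0.60), and 3110079O15Rik, which RefSeq names Snorc, a cartilage proteoglycan gene (0.59). Lgmn, a lysosomal protease gene (0.57), Slc13a5 (0.57), Comp, a cartilage matrix gene (0.57), Dap (0.56), Pmp22 (0.55), Myo5a, a myosin gene (0.53), Cox6a1, a respiratory chain gene (0.52), and Cd200 (0.51) followed. Taken singly, Ccdc80 was closest to Comp (0.58) and Sparc (0.53), Serinc5 to Panx3 and Smpd3 (0.56), and Ugp2 to Hapln1, the link protein gene of aggrecan (0.48), and Panx3 (0.46). Lmcd1 was closest to Pmp22 (0.46) and Lgmn (0.45), Unc5b to Snorc (0.47) and Adk (0.45), and Crispld1 to Comp (0.46) and Snorc (0.46). Cpe was closest to Adk (0.46) and the noncoding C430049B03Rik (0.43), and Ptgis to Map1lc3b, an autophagy gene (0.43), and Lgmn (0.43).

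At the other end, the genes most opposed to the 8 were Ptges3 (-0.62), Nup98, a nuclear pore gene (-0.54), Srxn1, sulfiredoxin (-0.53), Ncl, nucleolin (-0.52), Rdh13 (-0.52) and Eif4e, the cap-binding translation factor (-0.49). Srxn1 averaged 4.27 in bin 4 and 7.67 in bin 1, the largest negative difference of the 5380 genes. Ptges3 and Ncl were detected in every kept profile.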

How the data were processed

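Single-cell RNA-seq was deposited for 217 cells as 1 table. SMARTer and Nextera XT kits were used, per the labels' protocols. TopHat and mm10 appear in the submitters' processing notes, and no quantifier, annotation or abundance unit is given in the sources used here. Values were deposited in log2 form, and the base and a pseudocount of 1 were inferred from the data. Totals per column after back-transformation lay between 394406 and 616257, so they were scaled and depth is unknown. A nameless row (1 row) was left out. Every one of the 9739 genes was above 0 in at least 10 columns, so genes seen in fewer are not among those called measured.

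Columns with r above 0.95 were averaged (23 sets of 2 or 3 columns), Cell_204 was dropped, and of 187 profiles the 176 with Acan of at least 5 were cut at the quartiles of Col10a1. Correlations are over those 176, or over 137 where Col10a1 had to be detected. Profiles tied at 0 stay together. Partial Spearman correlations were computed on ranks given the number of genes detected. No animal is named, so no p-value was computed, and SDs are over cells. No doublet caller was run. The members, gene lists and the rule for named genes were chosen with earlier results of these data known. That rule took the members, fixed zone genes, the 12 genes most like and 6 most opposed to the members' mean z, the 2 nearest to each member and list genes past 1 log2. Enpp2, Nt5dc1 and some genes in the closing section were named after their values were seen.

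The alternatives were all 217 columns, no Acan minimum or one of 8, another ordering, 3 parts, profiles with Col10a1 only, genes detected regressed out, the 10% of profiles with fewest genes left out, a pseudocount of 0.1, upper-quartile scaling, Pearson correlation, detection above 0 or at 10 and no minimum share. Leaving out profiles with Ibsp and regressing out immediate-early genes were added after seeing the data. SciPy 1.17.1, NumPy 2.4.6 and pandas 2.3.3 ran under Python 3.11.15, figures were drawn with matplotlib 3.10.9, and the steps were tested on simulated data.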

Additional observations from a re-analysis of the deposited data

How the results depend on the processing

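All 8 genes stayed at least 1 higher in the upper than in the lower part in the 14 alternatives that gave this value, with a median difference of 1.59 to 4.23, against 3.12. None of the values of the 8 genes changed sign, whereas among all genes the balance of higher and lower turned with genes detected regressed out. With bins drawn among profiles with Col10a1 detected, the median pairwise correlation went to 0.32, the median partial correlation with Col10a1 to 0.31, and the number of genes with a first step of 1 at bin 2 to 0, against 7. That setting leaves out the profiles without Col10a1 and draws the bins anew. In it the share of its difference that Lmcd1 had reached at bin 2 was 1.92%, against 66%. Over 15 alternatives these medians ran from 0.32 to 0.47 and from 0.31 to 0.47, and the median pairwise correlation given genes detected from 0.29 to 0.40. The number of genes with a first step of 1 at bin 2 was 5 with genes detected regressed out and with no Acan minimum. It was 6 without profiles that had Ibsp and with immediate-early genes regressed out.

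The share of all genes higher by at least 1, 16.1%, was 5.30% with genes detected regressed out, 8.38% with immediate-early genes regressed out, 9.27% with no minimum share of profiles, 24.2% after scaling to the upper quartile and 31.8% with a pseudocount of 0.1. The share lower, 4.24%, was 7.32% with genes detected regressed out, 7.71% with the pseudocount of 0.1, 2.49% after scaling to the upper quartile, 2.37% with no minimum share and 2.58% with the ordering by other hypertrophic and prehypertrophic genes. The cause of these shifts was not tested, other than that genes rarely detected enter with no minimum share. The median difference over all genes was 0.49 after scaling to the upper quartile, 0.51 with the pseudocount and -0.02 with genes detected regressed out, against 0.30. Of 9 values of single genes that moved, 6 were among profiles with Col10a1 detected. The partial correlation of Ccdc80 with Col10a1 was 0.43 by Pearson, against 0.55 by Spearman. Without profiles that had Ibsp, the partial correlation of Cpe with Col10a1 was 0.34, and with no Acan minimum that of Ptgis was 0.33. No paired analysis was possible because there is only 1 group. Unknown depth limits every statement on a gene at 0.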

Other observations

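Genes listed as markers of resting cartilage did not all lie at the low end of Col10a1. Ucma and Sfrp5 were lower in bin 4 than in bin 1 by at least 1 (differences of -1.70 and -1.78), whereas Cd200 averaged 5.66 in bin 4 and 1.15 in bin 1, Nt5e, the ecto-5′-nucleotidase gene, 7.90 and 4.87, and Foxa2, a forkhead factor gene, 2.53 and 0.05. In the same profiles, Cd200 and Foxa2 had partial rho values of 0.51 and 0.35 with the mean z of the 8 genes. Of the 10 measured genes of that list, 3 were higher by at least 1 and 2 were lower, against 9.27% and 2.37% of all 9739 genes.

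Among columnar genes, Fmod, which encodes fibromodulin, averaged 7.19 in bin 4 and 8.50 in bin 1, and Sox9 differed by -2.07. No gene of the 10 measured in that list was higher by 1. Comp, a matrix gene counted with the chondrocyte list, averaged 10.08 in bin 4 and 8.72 in bin 1, the only gene of 15 in that list higher by at least 1, and Acan differed by 0.68.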
